A study of Mus musculus with 18 samples.

Results

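The extracellular matrix of the kidney and the stromal cells that make it were followed through 48 genes, taken by symbol from a list of collagens, basement membrane proteins, elastic fibre proteins, proteoglycans, matricellular proteins, crosslinking enzymes, proteases, growth factors, and stromal receptors. All 48 were found among the 78239 genes counted. Kidney RNA came from 18 wild-type offspring of the outbred CD-1 stock, aged 6 wk, with 1 library per mouse: 5 males and 5 females of dams fed a low-protein diet (LP, 8% protein), and 5 males and 3 females of dams fed a normal-protein diet (NP, 18% protein). The dams were fed these diets through gestation and lactation, and every pup was fed the NP diet from weaning. The methods describe a measurement of glomerular filtration rate at this age in both diet groups, and all mice, NP mice included, had injections of cationic ferritin for imaging and a saline perfusion before a piece of the left kidney was taken for RNA. Male kidneys were collected sooner after the last ferritin injection than female kidneys, so sex and this interval cannot be told apart in any comparison of males with females. The labels do not tie mice to litters, so mice of a group may be siblings and P-values measure the spread between these mice.

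Matrix genes encode the scaffold between and beneath cells. Fibrillar collagens (types I, III, and V) form the tensile fibres of the interstitium, with type V chains starting and limiting the fibril. Type IV collagen and laminins form the basement membranes under tubules, vessels, and the glomerular tuft. Elastic fibres of arteries and the renal pelvis are built from elastin on a fibrillin and fibulin frame. In the kidney most fibrillar collagen is made by interstitial fibroblasts, pericytes, mesangial cells, and the outer coat of vessels, cells that carry the platelet-derived growth factor receptors Pdgfra and Pdgfrb, and TGF-beta ligands are the best known inducers of its synthesis.

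Depth ran from 14050486 to 23562411 reads on genes per library (median 16747971). Values are normalized counts, which are the deposited read counts divided by a size factor per library. RNA from a block of kidney does not separate more stromal cells from more RNA per stromal cell. The listed marker genes of proximal tubule and of medullary tubule were present in every library, with summed levels of 99887 to 221434 and 37377 to 126200 normalized counts. In the medullary tubule list Umod was the highest gene in every library (20814 to 85505), whereas Slc14a2 ranged from 207 to 1959. The sum therefore does not tell how much medulla a piece held. In a clustering of all 18 libraries over 12665 genes, LP female 1, LP female 2, and NP female 3 stood apart from the other 15, and the counts for females, for the interaction, and between the sexes are given with and without these females.

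Levels between genes were compared as normalized counts per kilobase of exon. The length was that of all annotated exonic bases of a gene, such as 1187 for Mgp, 4264 for Sparc, and 6416 for Lum. It may exceed the length of the transcripts present in these kidneys, which was not measured. The order of genes given here therefore depends on the annotation. Timp3, a matrix-bound inhibitor of metalloproteinases, had the highest level, with a median of 5643 per kilobase and a range from 2839 to 7151. Mgp, the matrix Gla protein that inhibits calcification, followed at a median of 839. Next were Col4a1 at 790, the collagen-binding glycoprotein Sparc at 762, and Col4a2 at 630. The ranges of Mgp (400.0 to 1596), Col4a1 (290.4 to 1232), Sparc (472 to 1112), and Col4a2 (181 to 867) over the 18 mice overlapped, whereas that of Timp3 did not overlap with any of them. At the low end were the keratan sulfate proteoglycan Lum at a median of 2.68 per kilobase, the large chondroitin sulfate proteoglycan Vcan at 3.19, the matricellular protein Postn at 4.92, the ligand Tgfb3 at 5.03, and Col5a3 at 5.60, all with overlapping ranges. Lum and Mmp2 had a count of 0 in NP female 3, where a count of 0 allows up to 0.207 CPM.

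The genes also varied to unequal extents between mice. Vcan ranged from 0.555 to 26.0 per kilobase, Postn from 0.280 to 20.3, Tgfb2 from 2.98 to 76.1, and Col8a1, which is made by vascular smooth muscle and endothelium, from 2.68 to 54.6. Lamb1 ranged from 139.8 to 320.8 and Sparc from 472 to 1112. Genes with a low level thus included those with the widest ranges, where counts per library were as low as 12 for Vcan and 2 for Postn.

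Chains that are assembled into the same collagen were compared by their ratio within a library. The ratio of Col4a1 to Col4a2, which pair in the basement membrane trimer and are transcribed from a shared promoter region in opposite directions, lay between 1.17 and 1.67 in the 18 libraries, with a median of 1.38. Over the same libraries Col4a1 ranged from 2167 to 9198 normalized counts. The ratio of Col6a1 to Col6a2 lay between 1.28 and 2.19, and that of Col1a1 to Col1a2 between 0.427 and 0.825. These are ratios of normalized counts per gene, not per length, and the points share library and depth.

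**Figure D1:**
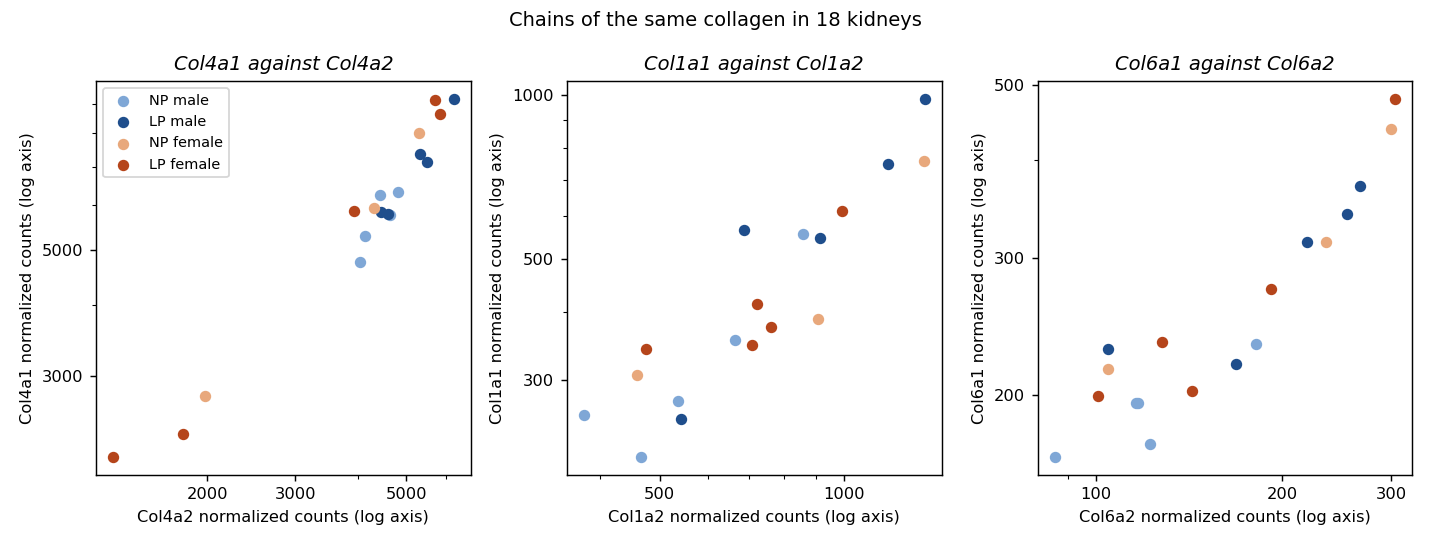
Normalized counts of 3 pairs of collagen chains in 18 kidneys, on log axes, with 1 point per mouse coloured by group. Points of each pair lie along a diagonal, and the 3 mice lowest in Col4a1 (2167 to 2769) are the females that stood apart from the other libraries.

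Values differed between mice of a group as well as between groups. Among the 10 males, LP male 4 had the highest value for 28 of the 48 genes and was in the upper 3 for 43. LP male 2 was in the upper 3 for 34 genes and LP male 1 for 27, whereas LP male 3 was there for 5 and LP male 5 for 6. NP male 1 was the lowest male for 14 genes. NP male 3, in the upper 3 for 14 genes, was the highest of the NP males by its median deviation from the mean of all mice (0.15 on the log2 scale, against 0.59 in LP male 4). Among the 8 females, NP female 2 was highest for 23 genes and NP female 3 lowest for 21.

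**Figure D2:**
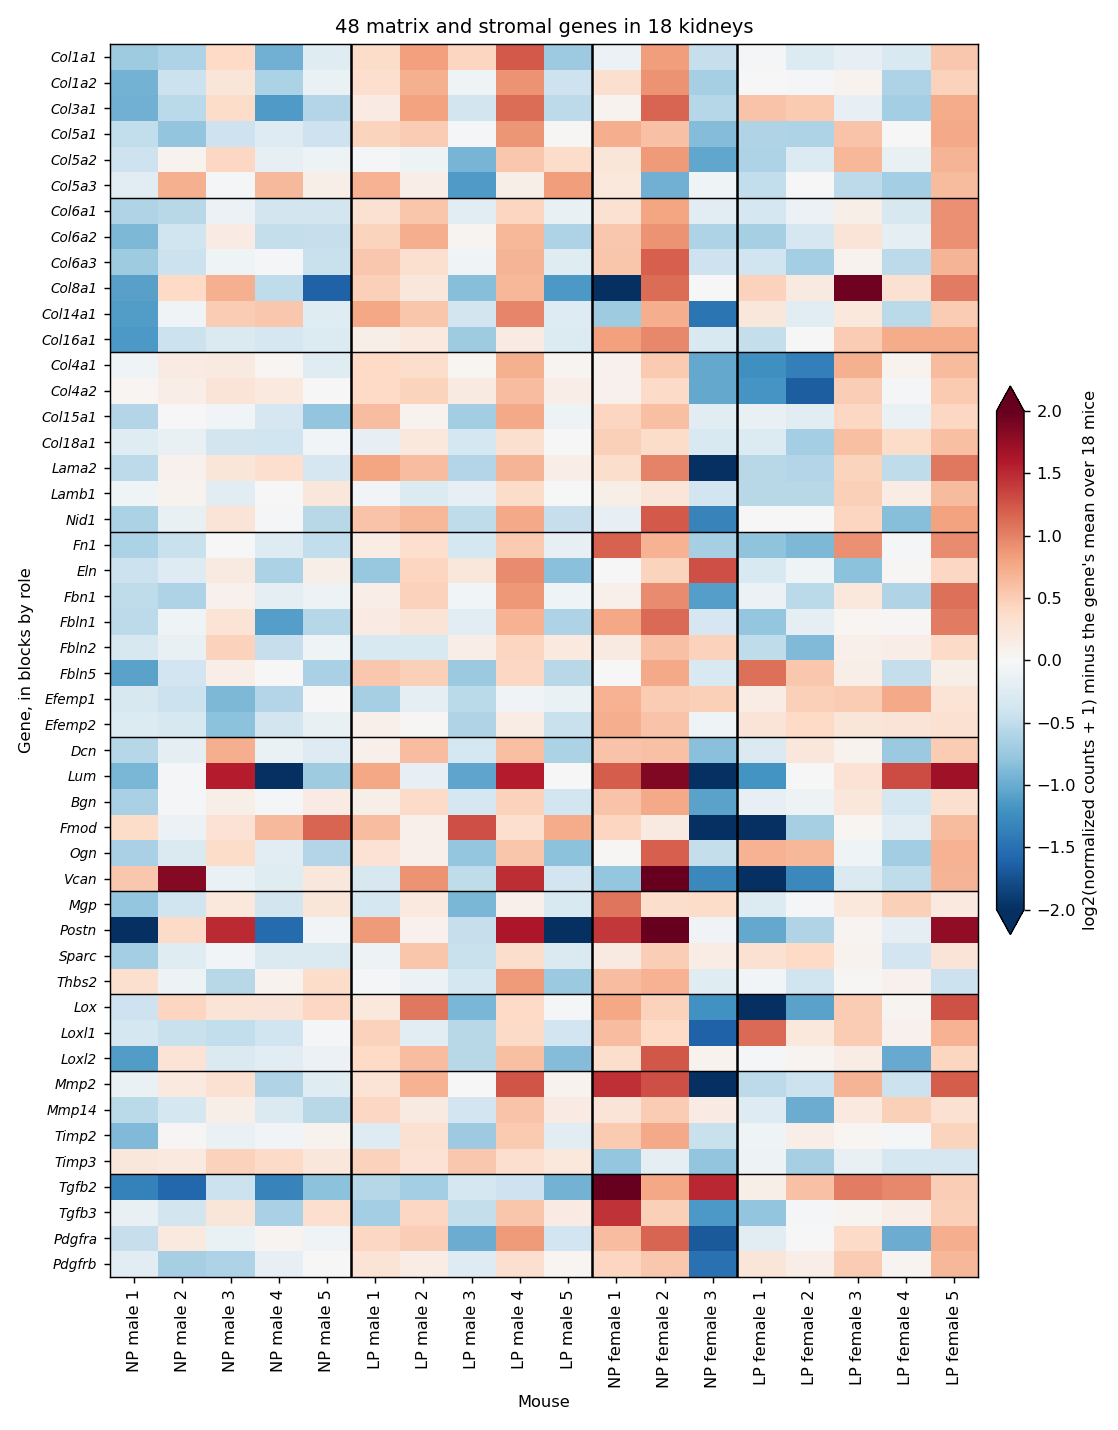
Each row is 1 of the 48 genes, each column a mouse, and the colour is log2(normalized counts + 1) minus the mean of that gene over 18 mice, with red above and blue below and black lines between roles and groups. LP male 4 is above the mean for 46 genes, as are LP female 5 and NP female 2, and NP male 1 is below it for all but 5.

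The question of the first comparison was whether matrix genes differed in adult male kidneys with maternal diet. In the 10 male libraries 46 genes reached the minimum of 10 counts throughout, and 42 of them had a higher fitted mean in LP males than in NP males, and the median log2 fold change was 0.35, against −0.004 over the 13181 genes tested. None of the 46 passed an adjusted P of 0.05 in the quasi-likelihood test of edgeR, in which 0.0379% of all genes did. At an unadjusted P under 0.05, 15 of the 46 (32.6%) were higher in LP males, against 2.22% of all genes, and 0 were lower, against 1.62%. The genes were chosen with earlier results of these data known, so these shares and those of the comparisons below are descriptions. Lum and Postn did not reach 10 counts in every male. The DESeq2 Wald test called 1 of the 46, Col5a1, with an adjusted P of 0.0109, and 19 of all 13181 genes. With limma-voom 0 of the 46 and 6 of all 13181 genes were called.

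Col5a1, which encodes the type V chain that starts fibrils of types I and III collagen, had the smallest P-value. Its values were 279, 291, 200, 376, and 207 normalized counts in LP males 1 to 5. In NP males 1 to 5 they were 144, 117, 153, 171, and 152. The LP males all lay above the NP males, which held for no other of the 48 genes and for 0.258% of all genes tested. The mean was 271 ± 71.9 in LP males and 148 ± 19.6 in NP males (SD, n = 5 each), a log2 fold change of 0.89 ± 0.19 (SE) or 1.86-fold, with an adjusted P of 0.562 by edgeR. An exact two-sided permutation test of these 10 values gave P = 0.00794, the smallest that 5 against 5 mice allow. Any gene whose groups do not overlap gives this value, so the test adds nothing to the lack of overlap. Leaving out any 1 male left the log2 fold change between 0.74 and 0.99, with adjusted P-values by edgeR from 0.273 to 1.00. Col5a1 (ENSMUSG00000026837.17) lies on chromosome 2 from 27776397 to 27929526 on the plus strand of GRCm39, and 212 of its 8724 exonic bases are shared with the antisense genes 2810430I11Rik and Gm13372, whose reads were not separated by strand.

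Values differed among the other fibrillar chains. Col5a2, the usual partner of the Col5a1 chain, had a log2 fold change of 0.08 ± 0.27 (SE) and Col5a3 of −0.01 ± 0.34. Of the fibrillar chains made in bulk, Col1a1 was at 0.92 ± 0.33, Col1a2 at 0.70 ± 0.27, and Col3a1 at 0.87 ± 0.35, each with an adjusted P of 1.00 by edgeR. Col1a1 was at 546, 747, 566, 985, and 254 normalized counts in LP males 1 to 5 and at 258, 274, 556, 217, and 356 in NP males 1 to 5. LP males 1 and 5 were within the range of the NP males for Col1a1.

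Type VI collagen, which forms beaded filaments around cells and links them to the interstitial fibres, had its 3 listed chains, Col6a1, Col6a2, and Col6a3, among the 15. Col6a1 was at 315, 371, 219, 342, and 229 normalized counts in LP males 1 to 5. It was at 166, 173, 233, 195, and 195 in NP males 1 to 5, so that LP males 3 and 5 lay below the highest NP male, NP male 3. Col6a1 thus differed by 0.63 ± 0.17 (SE) on the log2 scale, at an adjusted P of 1.00 by edgeR, and the exact permutation test gave P = 0.0238. Col6a3 was at 502, 435, 328, 558, and 291 normalized counts in LP males 1 to 5. It was at 211, 256, 325, 337, and 254 in NP males 1 to 5, and LP males 3 and 5 were again within the NP range. Its difference was 0.63 ± 0.20 on the log2 scale (adjusted P of 1.00 by edgeR), with an exact permutation P = 0.0397. Col6a2 had a log2 fold change of 0.72 ± 0.26. Among the other collagens, Col8a1, Col14a1, and Col16a1 were positive as well, at 0.22 to 0.41.

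The sequence before the start of transcription is shown for the 3 collagen genes with the smallest P-values in males, to set these windows side by side. Each is the 250 bases before the RefSeq start on GRCm38.p6, 5′ to 3′ on the strand of the gene, with capitals marking the GC box GGGCGG, the CCAAT box, or the TATA box written TATAAA on either strand. Col5a1 lies at chr2:27886175-27886424 on the plus strand, Col6a1 at chr10:76726045-76726294 on the minus strand, and Col6a3 at chr1:90843972-90844221 on the minus strand.
Col5a1: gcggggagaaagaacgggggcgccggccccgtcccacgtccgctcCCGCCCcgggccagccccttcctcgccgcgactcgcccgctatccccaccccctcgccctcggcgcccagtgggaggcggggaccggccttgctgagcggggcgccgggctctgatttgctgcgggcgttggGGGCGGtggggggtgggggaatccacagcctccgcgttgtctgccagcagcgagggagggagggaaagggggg
Col6a1: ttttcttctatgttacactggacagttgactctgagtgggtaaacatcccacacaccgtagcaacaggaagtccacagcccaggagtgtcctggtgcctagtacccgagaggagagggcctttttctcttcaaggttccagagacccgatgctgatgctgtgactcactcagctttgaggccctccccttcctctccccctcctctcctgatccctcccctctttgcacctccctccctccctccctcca
Col6a3: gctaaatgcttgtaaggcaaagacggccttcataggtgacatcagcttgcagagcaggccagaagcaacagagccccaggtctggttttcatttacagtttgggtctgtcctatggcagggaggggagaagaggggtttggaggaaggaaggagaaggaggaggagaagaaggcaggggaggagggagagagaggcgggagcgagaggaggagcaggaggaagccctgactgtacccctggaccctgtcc
The window of Col5a1 held GGGCGG at 2 places, 1 on each strand, and those of Col6a1 and Col6a3 held none of the 3 motifs. A window was found for 34 of the 48 genes, and 21 of these 34 held GGGCGG, with the motif in 24 of their 41 windows (58.5%) and in 32.7% of all 32851 windows of this length. CCAAT was in 14 of the 41 windows (34.1%) and in 33.8% of all, and TATAAA in 5 of the 41 (12.2%) and in 12.4% of all.

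Basement membrane genes were positive in 7 of 7 cases, with a median log2 fold change of 0.33. Col4a1 was at 7374, 7136, 5773, 9198, and 5816 normalized counts in LP males 1 to 5 and at 5285, 6252, 6322, 5748, and 4757 in NP males 1 to 5. LP males 3 and 5 were within the NP range, and the log2 fold change was 0.33 ± 0.14 (SE). Col4a2 was at 0.25 ± 0.11 and Col15a1, a collagen of the border between basement membrane and interstitium, at 0.57 ± 0.26, whereas the laminin chain Lamb1 was at 0.01 ± 0.13. All 4 had adjusted P-values of 1.00 by edgeR.

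Fn1, fibronectin, the glycoprotein on which collagen fibrils are laid down, was at 979, 1120, 690, 1266, and 786 normalized counts in LP males 1 to 5. It was at 568, 651, 886, 736, and 631 in NP males 1 to 5, with LP males 3 and 5 within the NP range. This gave a log2 fold change of 0.49 ± 0.17 (SE), an exact permutation P = 0.0556, and an adjusted P of 1.00 by edgeR. All 8 genes of elastic fibres and fibronectin were positive, at a median of 0.42, and 2 had an unadjusted P under 0.05, Fn1 and the fibrillin Fbn1 (0.58 ± 0.21). Of the crosslinking enzymes, which oxidize lysines of collagen and elastin, Lox was at 0.06 ± 0.31, Loxl1 at 0.35 ± 0.22, and Loxl2 at 0.40 ± 0.33, and none had an unadjusted P under 0.05. Proteoglycans had 4 of 5 positive values at a median of 0.16, and none had an unadjusted P under 0.05.

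Mmp14, the membrane-anchored metalloproteinase that cleaves collagen at the cell surface, was at 258, 220, 149, 288, and 218 normalized counts in LP males 1 to 5. It was at 133, 151, 211, 158, and 132 in NP males 1 to 5, so LP male 3 was within the NP range and NP males 2, 3, and 4 within the LP range. This gave a log2 fold change of 0.54 ± 0.19 (SE), an exact permutation P = 0.0476, and an adjusted P of 1.00 by edgeR. Mmp2, the gelatinase that Mmp14 activates, was at 0.64 ± 0.29, and the inhibitors Timp2 and Timp3 were at 0.16 ± 0.24 and 0.09 ± 0.09. Pdgfrb, the receptor of pericytes and mesangial cells, was at 623, 570, 431, 644, and 526 normalized counts in LP males 1 to 5. It was at 446, 325, 336, 460, and 514 in NP males 1 to 5, and LP male 3 lay below NP males 1, 4, and 5. The log2 fold change of Pdgfrb stood at 0.44 ± 0.15, with an exact permutation P = 0.0476 and an adjusted P of 1.00 by edgeR, and that of Pdgfra was 0.31 ± 0.29. Mgp was at −0.03 ± 0.23, with a mean of 780 ± 223 in LP males and 802 ± 237 in NP males (SD, n = 5 each).

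**Figure D3:**
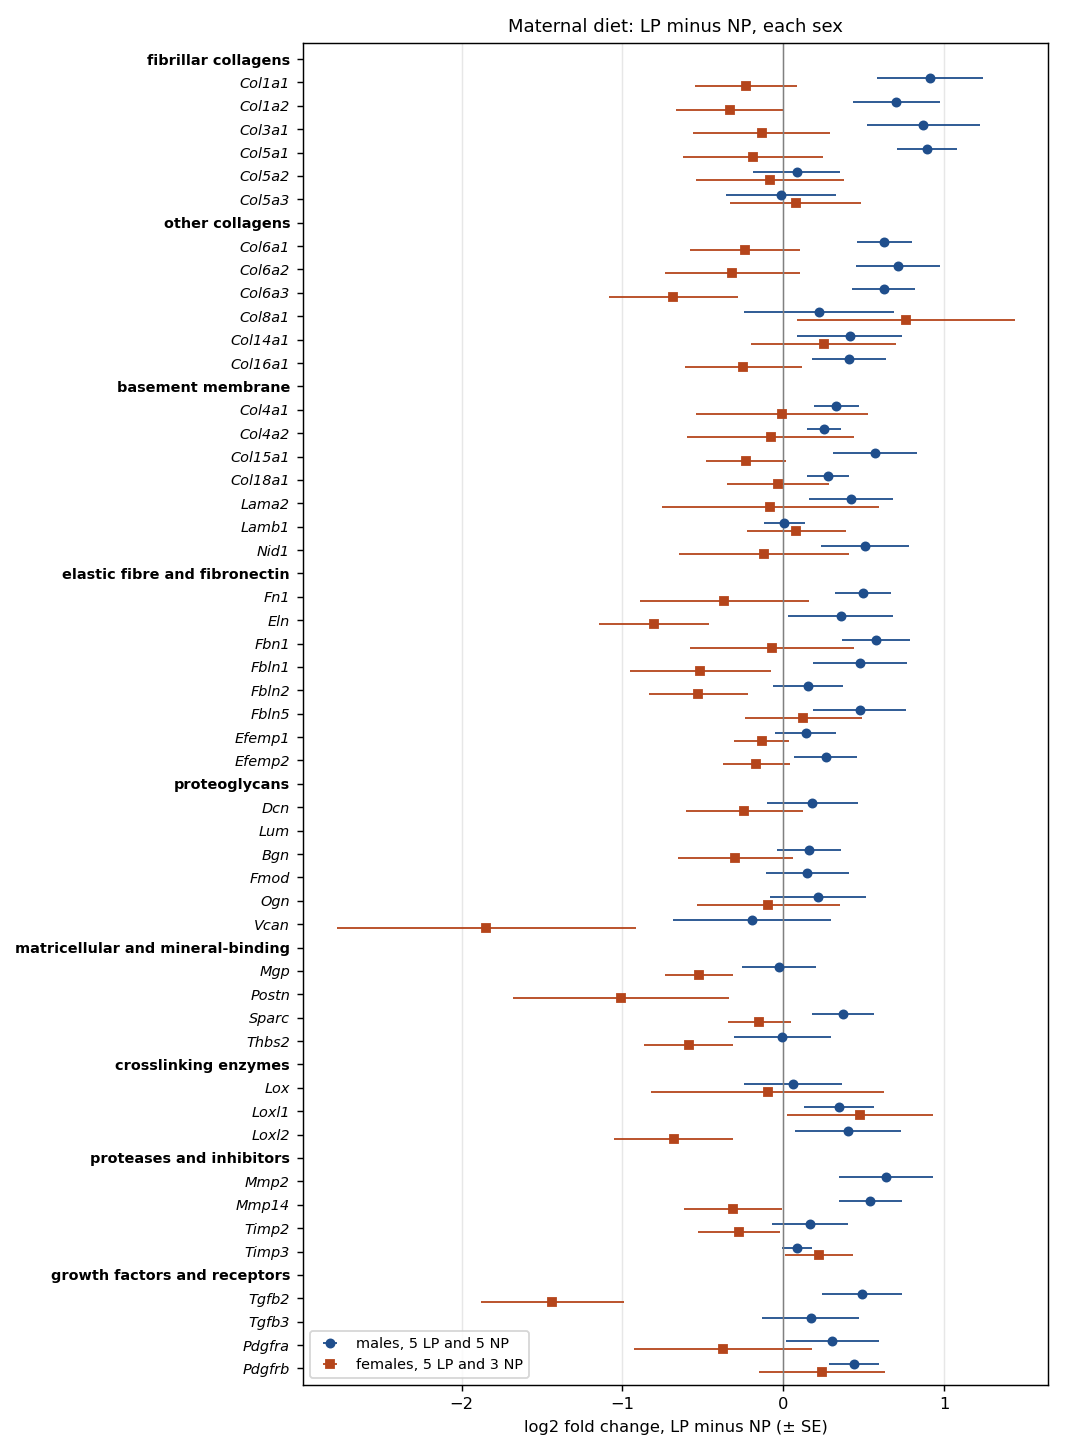
log2 fold changes of LP minus NP by role, with males as circles and females as squares, horizontal bars for 1 SE, and no point where a gene missed 10 counts in a library of that sex. Male values lie to the right of 0 for 42 of 46 genes and female values for 8 of 44, and most bars of the females span 0.

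The number of genes at an unadjusted P under 0.05 in males depended on single mice. It was 7 without LP male 4, 9 without LP male 2, 9 without NP male 1, and 23 without LP male 3, and the median log2 fold change ranged from 0.22 without LP male 4 to 0.45 without LP male 3. In each of these fits 0 genes were lower at that P, and 1.60% to 3.78% of all genes were higher. LP male 4 and NP male 3 were the males with the highest summed levels of the smooth muscle list (3308 and 2973 normalized counts, against 960 to 1666 in the other 8), the adipocyte list (1423 and 802, against 0 to 591), and the urothelium list (997 and 1858, against 50.2 to 725). Without both, 11 of 46 genes (23.9%) had an unadjusted P under 0.05, all higher in LP males, at a median of 0.27. In that fit 1.65% of all genes were higher and 1.33% lower at such a P. Col5a1 then had a log2 fold change of 0.75 ± 0.18 (SE) and an adjusted P of 1.00 by edgeR.

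Markers of other cell types were set beside the matrix genes in males. All 4 tested smooth muscle genes were positive (0.18 to 0.35), with summed levels of 1097 to 3308 normalized counts in LP males and 960 to 2973 in NP males. All 5 endothelial genes (0.01 to 0.23) and all 4 podocyte genes (0.23 to 0.42) were positive, 2 podocyte genes at an unadjusted P under 0.05, and the podocyte sum was 3000 to 4372 in LP males and 2752 to 3626 in NP males. Proliferation markers summed to 136 to 328 in LP males and 82.0 to 174 in NP males, with 1 of 2 tested genes at an unadjusted P under 0.05. Leukocyte markers had 3 of 3 tested genes positive (sums of 177 to 418 and 162 to 344), proximal tubule markers 3 of 5, and medullary tubule markers 2 of 6. Of the medullary tubule genes, 1 was lower in LP males at an unadjusted P under 0.05 by edgeR, and the list median was −0.19. No adipocyte gene reached 10 counts in every male, and 1 gene did so in each of the urothelium list (Upk3a, −0.23) and the mesothelium list (Upk3b, −0.40). All 6 interferon genes were negative, 2 of them at an unadjusted P under 0.05, and 1 of 5 glucocorticoid-responsive genes was positive. The adipocyte genes Adipoq and Cfd were at 0 in several mice, and Tagln did not exceed 12.1 normalized counts in any library. The part of these cell types in the male difference was not tested.

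In females the fitted difference with maternal diet was below 0 for most genes. Of 44 genes tested, 8 had a higher fitted mean in LP than in NP females, and the median log2 fold change was −0.21, against −0.01 over 13510 genes. None had an adjusted P under 0.05 by edgeR, nor did any of all genes tested (0%). DESeq2 and limma-voom also called 0 of the 44. At an unadjusted P under 0.05, 3 were lower in LP females (6.82%, against 2.75% of all genes) and 0 were higher (against 1.42%). No member had all LP females below all NP females, which held for 1.03% of all genes. Fmod, Lum, Mmp2, and Tgfb3 missed 10 counts in at least 1 female.

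Tgfb2, a TGF-beta ligand, was at 477, 99.1, and 166 normalized counts in NP females 1 to 3. In LP females 1 to 5 it was at 62.7, 87, 118, 113, and 81.5. NP female 1 was far above all other females, and NP female 2 lay within the LP range. Tgfb2 differed by −1.44 ± 0.45 (SE) on the log2 scale, with 0.886 as the adjusted P by edgeR and an exact permutation P = 0.0536, where 5 against 3 mice allow no less than 0.0179. Without NP female 1 the log2 fold change of Tgfb2 was −0.53.

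Mgp was at 1895, 1149, and 1165 normalized counts in NP females 1 to 3 and at 742, 882, 1038, 1246, and 1029 in LP females 1 to 5. The groups overlapped through LP female 4, and Mgp differed by −0.53 ± 0.21 (SE) on the log2 scale, at an adjusted P of 0.886 by edgeR. Elastin, Eln, was at 127, 172, and 311 in NP females and at 102, 118, 71.1, 128, and 169 in LP females, with a log2 fold change of −0.80 ± 0.34 and an adjusted P of 0.886 by edgeR. The value of 311 is that of NP female 3, which stood apart from most libraries. The matricellular protein Thbs2 was at −0.59 ± 0.28, Loxl2 at −0.68 ± 0.37, and Vcan at −1.85 ± 0.93, each with an adjusted P of 0.886 by edgeR. Vcan was at 430 in NP female 2 and at 9.17 to 102 in all other females, and without NP female 2 its log2 fold change was 0.57. Col5a1 in females had a log2 fold change of −0.19 ± 0.43, with 134, 132, 302, 205, and 347 normalized counts in LP females 1 to 5 and 337, 307, and 111 in NP females 1 to 3.

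By role, the 4 matricellular and mineral-binding genes were all below 0 in females, at a median of −0.56, and the 4 tested proteoglycans likewise, at a median of −0.27. Genes of elastic fibres and fibronectin were negative in 7 of 8 cases at a median of −0.27. Fibrillar collagens, which had a median of 0.79 in males, had 5 of 6 negative values at a median of −0.16, and basement membrane genes lay at a median of −0.08.

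Many matrix genes were low in the females that stood apart. In LP female 1, LP female 2, and NP female 3, 19 of the 48 genes were lower than in every other female and 0 were higher. Of all 15784 genes with a mean of at least 10 normalized counts over the 8 females, 12.8% were lower in this way and 10.3% higher, and the 3 females were set apart by a clustering over all genes, so the count is a description. Col4a1 was at 2380, 2167, and 2769 normalized counts there and between 4757 and 9198 in the other 15 mice. Col5a1 was at 111 to 134 there and at 205 to 347 in the other 5 females, and Fn1 at 474 to 557 against 871 to 2010. Others of the 19 were Col15a1, Col16a1, Col18a1, Lamb1, Lama2, Lox, and Mmp14. In the same 3 libraries the interferon list summed to 1286 to 2069 normalized counts, against 11484 to 46283 in the other 5 females. The glucocorticoid-responsive list summed to 3573 to 7563 against 14853 to 21927, the smooth muscle list to 617 to 1115 against 1421 to 2661, the podocyte list to 4005 to 6235 against 6189 to 8600, and the endothelial list to 1585 to 3742 against 2646 to 5384. Not all markers were lower. The proliferation list summed to 218 to 341 against 172 to 333, and the leukocyte list to 169 to 446 against 179 to 361. Of the endothelial list, Emcn was at 891, 1173, and 368 in LP females 1 and 2 and NP female 3, against 440 to 1003. Of the smooth muscle list, Lmod1 was at 94.8, 98.5, and 49.9 there, against 32.0 to 96.3. The part of these states and cell types in the matrix values was not tested.

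Without these 3 females, 3 LP and 2 NP females remained, and 4 of 48 genes (8.33%) had an unadjusted P under 0.05, all lower in LP females, against 2.21% of all genes lower and 2.23% higher. These were Thbs2 (−0.78 ± 0.28, SE), the small proteoglycan Bgn (−0.60 ± 0.22), Timp2 (−0.51 ± 0.19), and Tgfb2 (−1.50 ± 0.57), and the median over the 48 was −0.32. In the same fit Mgp was at −0.49 ± 0.23, Eln at −0.30 ± 0.37, Loxl2 at −0.91 ± 0.45, Vcan at −1.82 ± 0.84, and Col5a1 at −0.20 ± 0.25. Single females moved the female result further. With NP female 2 left out the median was 0.04, with 3 of 44 genes higher and 2 lower at an unadjusted P under 0.05, which is under the shares of all genes (9.37% and 10.1%). With NP female 3 left out it was −0.49, with 10 of 47 lower (21.3%, against 1.66% of all genes). Without LP female 5 there were 6 of 44 (13.6%, against 1.94%), and without LP female 1, 2, or 3 there was 1 (2.27%, against 1.51% to 2.59%).

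The marker lists gave mixed values for diet in females. Smooth muscle genes had a median of −0.51, with 3 of 4 negative, all 5 tested interferon genes were negative at a median of −0.58, and all 3 tested proliferation genes at a median of −0.31. Endothelial, podocyte, leukocyte, and proximal tubule genes had positive medians (0.10 to 0.21). Glucocorticoid-responsive genes lay at −0.16, and medullary tubule genes at −0.13 with 1 of 6 lower at an unadjusted P under 0.05. Without the 3 females that stood apart the smooth muscle median was −0.38 with 4 of 5 negative, that of the interferon list −0.46 with 6 of 6, and that of the proliferation list −0.27 with 3 of 4. The leukocyte list was then at −0.35 and the endothelial list at −0.04. The part of these lists in the female values was not tested.

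Whether the difference with diet varied by sex was tested with the interaction term, the LP minus NP difference in females minus that in males. Of 43 genes tested, 38 had a negative term and the median was −0.52, against −0.02 over 12665 genes. None passed an adjusted P of 0.05 by edgeR, DESeq2, or limma-voom, and 0.0158% of all genes did by edgeR. At an unadjusted P under 0.05, 10 were negative (23.3%, against 1.84% of all genes) and 0 positive (against 2.18%). Tgfb2 had the smallest P-value, with a term of −1.94 ± 0.52 (SE). Next were Col6a3 at −1.31 ± 0.44, Mmp14 at −0.86 ± 0.35, Col5a1 at −1.09 ± 0.45, Col6a1 at −0.87 ± 0.36, and Col1a1 at −1.14 ± 0.49, all with an adjusted P of 0.977 by edgeR.

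By role, fibrillar collagens had a negative term in 5 of 6 genes at a median of −1.01, with 3 at an unadjusted P under 0.05. Type VI and other collagens had 5 of 6 at a median of −0.77, and all 8 genes of elastic fibres and fibronectin were negative at a median of −0.67. Basement membrane genes were nearer to 0, with 6 of 7 negative at a median of −0.34. Timp3, at 0.14 ± 0.20 (SE), and the vascular collagen Col8a1, at 0.54 ± 0.85, were among the 5 genes with a positive term.

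The male values behind the interaction of Tgfb2 were low. Tgfb2 was at 38.4, 35.5, 45.2, 43.3, and 29.5 normalized counts in LP males 1 to 5 and at 22, 18.7, 42.5, 22.2, and 32.2 in NP males 1 to 5. The count of 10 negative genes was 2 of 43 without LP male 4 (4.65%, against 1.92% of all genes), 2 of 43 without NP female 2 (4.65%, under the 7.29% of all genes), and 20 of 46 without NP female 3 (43.5%, against 1.73%). It was 4 without LP male 2, 5 without LP female 4, NP male 1, or NP male 4, and 6 without LP female 1, where 1.56% to 2.23% of all genes were negative. Without the 3 females that stood apart, 14 of 46 genes (30.4%, against 1.80% of all genes) were negative at an unadjusted P under 0.05, at a median of −0.75.

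Some marker lists had interaction terms as large as those of the matrix genes. The 4 tested smooth muscle genes had a median of −0.74, with 3 negative and 1 at an unadjusted P under 0.05, and both tested proliferation genes were negative at a median of −1.05, 1 of them at such a P. Podocyte genes were negative in 4 of 4 cases at a median of −0.25 and interferon genes in 4 of 5 at −0.27, whereas the endothelial median was 0.08 and that of the proximal tubule 0.21. Without the 3 females that stood apart, the smooth muscle median was −0.55 with 4 of 4 negative, and that of proliferation genes −1.03. The part of these cell types in the interaction was not tested.

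**Figure D4:**
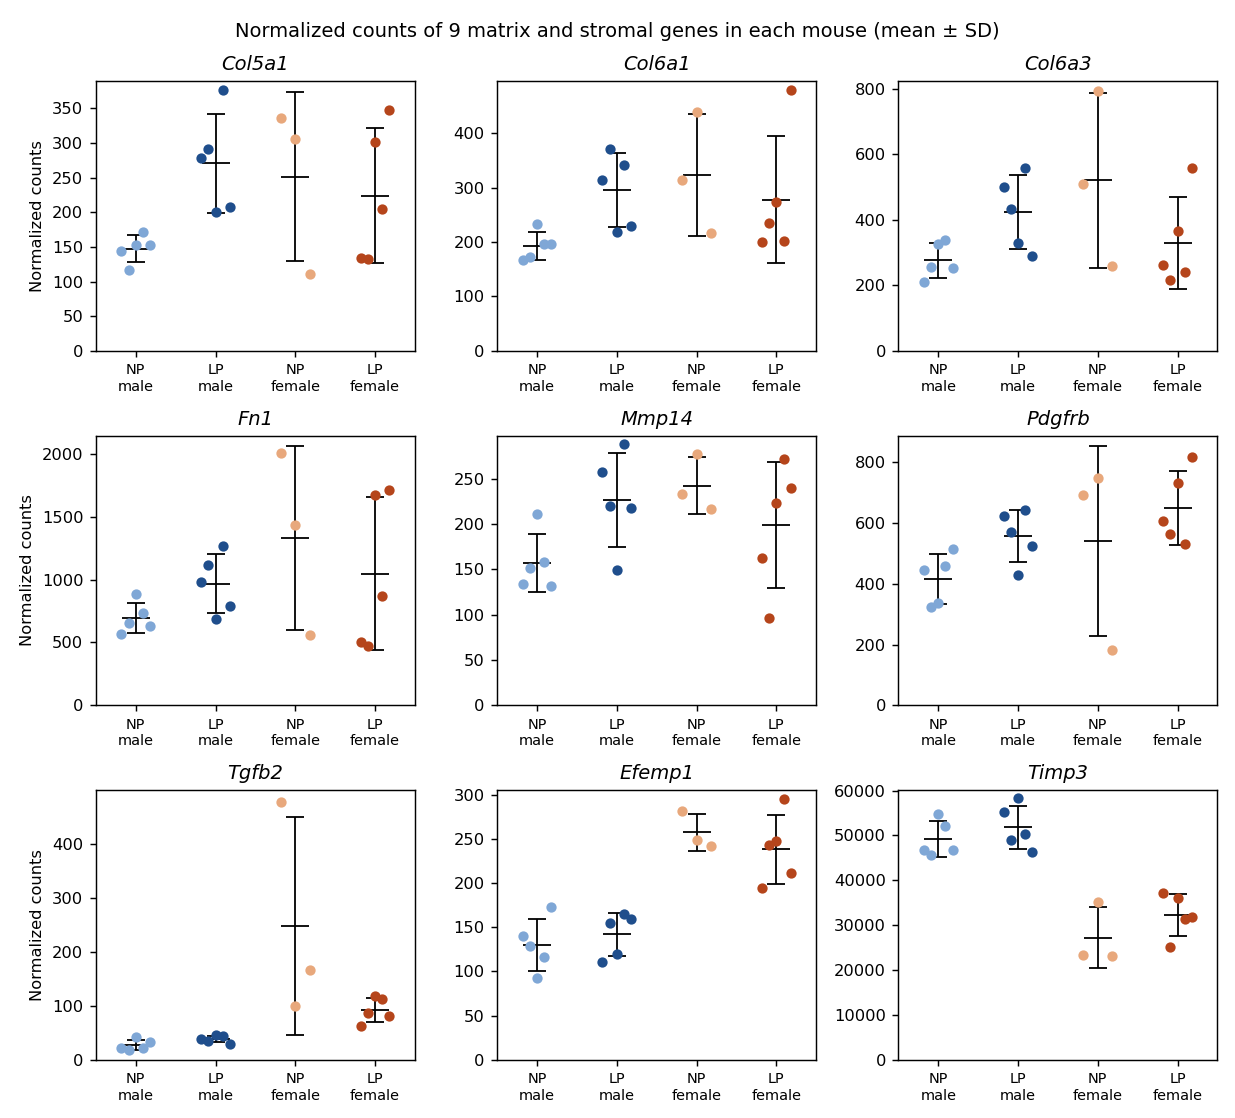
Normalized counts of 9 genes by group on linear axes from 0, with 1 point per mouse and black bars for the mean ± SD (n = 5, 5, 3, and 5 from left to right). LP males lie above NP males for Col5a1 without overlap, and females lie apart from males for Tgfb2, Efemp1, and Timp3.

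Between the sexes, with diet as a covariate, 6 of 43 genes passed an adjusted P of 0.05 by edgeR, 5 higher in females and 1 lower. Over all genes 19.5% were called higher in females and 18.5% lower. At an unadjusted P under 0.05, 9 of the 43 (20.9%) differed, against 46.6% of all genes. Every female lay above every male for Efemp1 and Tgfb2, which held for 2.00% of all genes, and below every male for Timp3, which held for 6.64%. The median log2 fold change over the 43 was 0.23, against 0.05 over all genes.

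Timp3 was lower in females, the 1 gene of the 43 called lower. It ranged from 45686 to 58248 normalized counts in males, with a median of 49675, and from 23126 to 37127 in females, with a median of 31541. The difference is −0.72 ± 0.10 (SE) on the log2 scale, at an adjusted P of 1.96e-05 by edgeR. The exact two-sided permutation test of 8 against 10 mice gave P = 2.29e-05, the smallest it can give. Any gene without overlap between the sexes, Tgfb2 and Efemp1 included, gives this value. Of the 8146 exonic bases of Timp3, 1734 are shared with the antisense gene Syn3.

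Tgfb2 was higher in females, at 62.7 to 477 normalized counts with a median of 106, against 18.7 to 45.2 with a median of 33.9 in males. This is a log2 fold change of 2.14 ± 0.34 (SE) or 4.42-fold, at an adjusted P of 6.67e-05 by edgeR and an exact permutation P = 2.29e-05. Efemp1, a fibulin of elastic fibres, was at 92.8 to 173 in males (median 134) and at 194 to 295 in females (median 245). Efemp1 thus differed by 0.89 ± 0.13 on the log2 scale (adjusted P of 2.18e-05 by edgeR). Efemp2, a fibulin that brings lysyl oxidase to elastin, was higher by 0.63 ± 0.14 on the log2 scale, with an adjusted P of 0.00178 by edgeR and with ranges of 73.8 to 145 in males and 124 to 217 in females. Col16a1, a collagen that binds to the surface of fibrils, was higher by 0.74 ± 0.21 with an adjusted P of 0.0102 by edgeR, and Mgp by 0.58 ± 0.17 with an adjusted P of 0.0136 by edgeR.

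The windows before the start of transcription are shown for the 3 genes that separated the sexes in every mouse, written as above. Tgfb2 lies at chr1:186705990-186706239 on the minus strand, Efemp1 at chr11:28852955-28853204 on the plus strand, and Timp3 at chr10:86300162-86300411 on the plus strand of GRCm38.p6.
Tgfb2: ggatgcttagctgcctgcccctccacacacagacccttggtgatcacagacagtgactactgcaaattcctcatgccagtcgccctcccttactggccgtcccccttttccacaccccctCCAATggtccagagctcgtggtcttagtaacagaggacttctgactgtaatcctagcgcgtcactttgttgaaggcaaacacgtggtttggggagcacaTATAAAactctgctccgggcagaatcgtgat
Efemp1: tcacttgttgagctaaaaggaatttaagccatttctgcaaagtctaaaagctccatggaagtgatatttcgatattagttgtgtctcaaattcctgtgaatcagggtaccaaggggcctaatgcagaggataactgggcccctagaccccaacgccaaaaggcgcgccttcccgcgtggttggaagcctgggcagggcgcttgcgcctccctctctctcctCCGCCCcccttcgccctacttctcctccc
Timp3: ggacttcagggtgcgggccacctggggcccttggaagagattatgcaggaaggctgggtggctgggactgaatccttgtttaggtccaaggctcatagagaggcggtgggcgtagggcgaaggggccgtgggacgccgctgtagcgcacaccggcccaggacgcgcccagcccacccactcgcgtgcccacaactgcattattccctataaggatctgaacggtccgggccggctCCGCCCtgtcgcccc
The Tgfb2 window held CCAAT and TATAAA at 1 place each, and those of Efemp1 and Timp3 held GGGCGG at 1 place each.

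The sex difference was larger for more genes once the 3 females that stood apart were left out. Then 13 of 46 genes had an adjusted P under 0.05 by edgeR, against 38.0% of all genes, 12 of them higher in females, and the median log2 fold change was 0.46. Fn1 was higher by 0.93 ± 0.19 (SE), Col18a1 by 0.61 ± 0.10, Pdgfrb by 0.56 ± 0.14, Loxl1 by 0.66 ± 0.17, Fbln1 by 0.81 ± 0.27, Col5a1 by 0.59 ± 0.20, and Lamb1 by 0.36 ± 0.11, beside the 6 genes above. Within diets, 7 of 43 genes passed in NP mice alone (against 15.1% of all genes), at a median of 0.59, and 3 of 47 in LP mice alone (against 18.9%), at a median of −0.11. Tgfb2, Efemp1, and Timp3 passed in both diets, Efemp2 passed in NP mice and not in LP mice (adjusted P of 0.094 by edgeR), and Mgp passed in neither (0.0515 and 0.247 by edgeR). Col16a1 was at 1.11 ± 0.32 in NP mice and 0.45 in LP mice, where its adjusted P was 0.254 by edgeR.

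**Figure D5:**
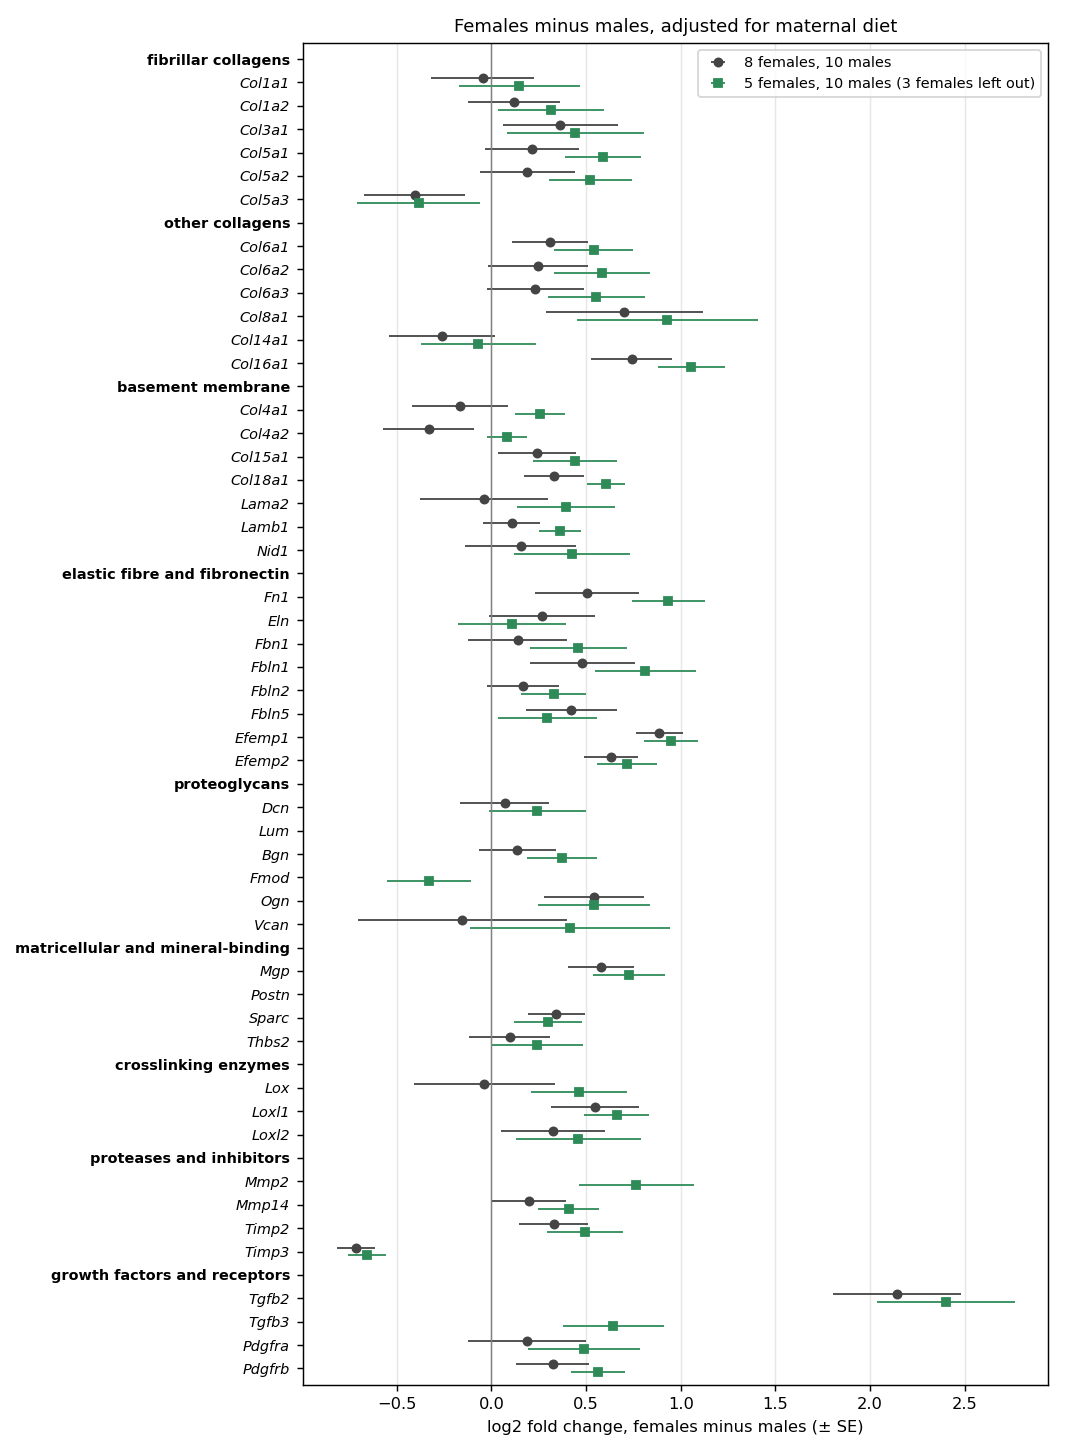
log2 fold changes of females minus males, adjusted for diet, by role, with all 18 mice as circles and without the 3 females that stood apart as squares, and horizontal bars for 1 SE. Tgfb2 lies farthest to the right (2.14 and 2.40), Timp3 is the gene farthest to the left (−0.72 and −0.65), and most squares lie to the right of their circles.

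Podocyte markers were called higher in females in 4 of 4 cases, medullary tubule markers in 2 of 6, glucocorticoid-responsive genes in 2 of 5, and proliferation markers in 1 of 2. Proximal tubule markers were called lower in 2 of 5. Over all genes 19.5% were called higher in females and 18.5% lower. Smooth muscle, endothelial, leukocyte, interferon, mesothelial, and urothelial markers had none called, and no adipocyte gene was tested. The podocyte list summed to 2752 to 4372 normalized counts in males and 4005 to 8600 in females. Without the 3 females that stood apart, 5 of 6 interferon genes, 4 of 5 glucocorticoid-responsive genes, 1 of 5 endothelial genes, and 1 of 5 proximal tubule genes were called higher, podocyte genes still in 4 of 4 cases, and no proliferation gene was. In that fit 38.0% of all genes were called in either direction. The part of these cell types in the sex difference of matrix genes was not tested.

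Genes that process collagen, carry the TGF-beta signal, or form the glomerular basement membrane were followed as 3 further lists. Of the collagen-processing genes, 13 were tested in males and 1, Bmp1, the procollagen C-proteinase, had an unadjusted P under 0.05 (0.54 ± 0.15, SE, adjusted P of 1.00 by edgeR), with a list median of 0.06. In females 1 of 13 had an unadjusted P under 0.05, the collagen chaperone Serpinh1 (−0.38 ± 0.16, adjusted P of 0.886 by edgeR). Serpinh1 (−0.60 ± 0.19) and Bmp1 (−0.50 ± 0.20) were the 2 with such a P for the interaction. Of 16 genes of the TGF-beta signal, 0 had an unadjusted P under 0.05 in males, in females, or for the interaction. All 11 genes of glomerular and other basement membranes were positive in males, at a median of 0.14, and 9 of 11 were negative in females, at a median of −0.16, with none at an unadjusted P under 0.05. Without the 3 females that stood apart, Serpinh1 was at −0.39 ± 0.16 in females and −0.62 ± 0.19 for the interaction, Bmp1 at −0.49 ± 0.22 for the interaction, and Loxl4, a lysyl oxidase, at −1.43 ± 0.60 in females also had an unadjusted P under 0.05.

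Between the sexes the processing list split. Bmp1 was higher in females by 1.27 ± 0.11 on the log2 scale (SE) and Pcolce, its enhancer, by 0.45 ± 0.15. Crtap (−0.999 ± 0.15), P4hb (−0.54 ± 0.09), Plod2 (−0.60 ± 0.13), P4ha2 (−0.34 ± 0.11), and Plod1 (−0.25 ± 0.09), which hydroxylate or fold the procollagen chains in the endoplasmic reticulum, were lower. Of the TGF-beta list, the latent-complex protein Ltbp3 (0.71 ± 0.13) and Smad3 (0.44 ± 0.15) were higher, and the receptor Tgfbr2 (−0.61 ± 0.13) and Smad2 (−0.55 ± 0.08) were lower. The laminin chains Lamb2 (0.47 ± 0.13) and Lama5 (0.35 ± 0.11) were higher among 11 basement membrane genes. All of these had an adjusted P under 0.05 by edgeR, the highest at 0.0344. Of 13 processing genes 2 were called higher and 5 lower. Of 16 TGF-beta genes 2 were called higher and 2 lower, and of 11 basement membrane genes 2 higher and 0 lower. Over all genes 19.5% were called higher in females and 18.5% lower. Without the 3 females that stood apart, P4ha2, Plod1, and Smad3 no longer passed (adjusted P of 0.151, 0.189, and 0.116 by edgeR). Then 6 of the 11 basement membrane genes and 4 of 16 genes of the TGF-beta signal were called higher. In that fit 38.0% of all genes were called in either direction.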

How the data were processed

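RNA of 1 kidney piece per mouse was sequenced after poly(A) selection without strand information. The authors trimmed reads, aligned them to GRCm39 (GENCODE vM36) with STAR, and deposited raw read counts per gene. The column counted without regard to strand was used. Reads not assigned to a single gene for any reason (28.6% to 36.1% of the total, highest in NP female 3) were left out. Symbols, exon lengths, and overlaps came from GENCODE vM39 of the same build, and promoter windows from RefSeq on GRCm38.p6.

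A minimum of 10 counts in each library of a comparison was set, and edgeR 4.0.16 in R 4.3.3 was run with its quasi-likelihood test, TMM normalization, and Benjamini-Hochberg adjustment over all genes tested. Diet was tested in males and in females separately, its interaction with sex over the 4 groups, and sex with diet as covariate. Adjusted P-values refer to edgeR unless another tool is named. DESeq2 1.42.0 and limma 3.58.1 were alternatives, as were other filters, size factors, a replicate block, and leaving out mice. The tests were run on simulated data with known changes. Exact permutation tests used log2(normalized counts + 1). Normalized counts are counts divided by DESeq2 size factors over 18 libraries.

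The 48 genes, their roles, and the marker and pathway lists were chosen with earlier results of these data known. Values are given for the 6 genes with the smallest P in each comparison, Col5a1 and Mgp in both sexes, and the 5 highest and 5 lowest levels. Genes beyond this rule were named after their values were seen. One symbol of the collagen-processing list, Leprel2, had no match. The labels do not say that a replicate number marks a litter or batch, so the numbers were not used as pairs in the edgeR fits. A replicate block was fitted as an alternative. Depth limits genes such as Lum and Tgfb3, with counts under 10 in some libraries.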

Additional observations from a re-analysis of the deposited data

Results flagged for a closer look

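In 4 cases a value stood far from the rest of their group by Dixon's ratio of the gap to the range, which was computed for 17 named genes in the groups of 5 mice. Of 51 such groups 4 were flagged. Chance flags about 1 in 20 independent groups. These groups share the same mice, and LP female 5 was flagged for both Col1a1 and Col6a1, so the count cannot be set against that rate. Col1a1 was at 614 normalized counts in LP female 5, where the other LP females were at 342 to 414. Col6a1 was at 480 in LP female 5, against 200 to 274 in the others. Col16a1 was at 49.0 in NP male 1, against 80.9 to 90.7. Vcan was at 230 in NP male 2, against 53.8 to 93.0. LP female 5 also had the highest summed adipocyte list of all mice, at 3920 normalized counts.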

How the results depend on the processing

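The direction of the median over the matrix genes was kept within both sexes and for the interaction under other filters, DESeq2 size factors, the DESeq2 Wald test, limma-voom, and the replicate block. In males, genes at an unadjusted P under 0.05 numbered 15 of 46 in the edgeR fit, against 2.22% of all genes higher in LP males. They numbered 8 of 46 with limma-voom (against 3.63%) and 9 of 43 with all 4 groups in 1 model (against 1.29%). When 1 mouse was left out they numbered 7 to 23, against 1.60% to 3.78%. All were higher in LP males. The DESeq2 Wald test called 1 of the 46 and 19 of all 13181 genes. In females, genes at such a P numbered 3 of 44 in the edgeR fit, against 4.17% of all genes in either direction. With limma-voom they numbered 5 of 44 (2 higher), where 9.73% of all genes were higher and 8.31% lower. The replicate block left 0 of 44 (against 1.24% of all genes). Leaving out 1 mouse left 1 to 10 (against 2.55% to 19.4%). For the interaction they numbered 10 of 43 in the edgeR fit, against 4.02% of all genes in either direction. They numbered 8 of 43 with limma-voom (2 positive), against 23.0%, and 6 of 43 with the replicate block, against 3.33%. Leaving out 1 mouse left 2 to 20, against 2.99% to 15.2% of all genes. Between the sexes 13 of 46 genes were called without the 3 females that stood apart, against 38.0% of all genes. In LP mice alone 3 of 47 were called, against 18.9%. In all mice 6 of 43 were called, where 19.5% of all genes were called higher in females and 18.5% lower. Genes at an unadjusted P under 0.05 then numbered 9 of 43 in all mice, against 46.6% of all genes, 21 of 46 without the 3 females (46.9%), 18 of 43 in NP mice alone (32.1%), and 15 of 43 with limma-voom (47.9%).

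Mgp in males reversed to 0.0103 with limma-voom and ranged from −0.146 to 0.114 when 1 mouse was left out. Vcan in females reversed to 0.0562 with limma-voom and ranged from −2.36 to 0.571 when 1 mouse was left out. Col5a1 in females ranged from −0.535 to 0.0861. The cause was not tested. The replicate block compared same-numbered mice, whose deviations correlated at −0.574 to 0.298 over 8 pairs. In males it left 11 of 46 genes at an unadjusted P under 0.05, all higher in LP males, against 1.86% of all genes higher. Leaving out LP male 4 with NP male 3 was chosen after the data were seen. Some fits rest on 2 NP females.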
